A study of Mus musculus with 8 samples.

Results

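The Pramel and Oog genes are a large mouse family of leucine-rich repeat proteins related to human PRAME, an antigen of tumours and testis. Members were taken as every gene whose symbol is Pramel, Pramef or Oog followed by a number. The annotation named 51 such genes, of which 37 had values among the 24921 genes in all and the other 14 were not analysed here. Of those 37 genes, 32 reached 1 FPKM in at least 2 libraries and were tested. The other 5 (Pramel1, Pramel22, Pramel23, Pramel27 and Pramel50) stayed below that filter. FPKM are fragments per kilobase of transcript, scaled to the mapped fragments of a library. The rule uses names alone, but the family was picked for study with earlier results of these data known.

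PRAME-family proteins fold as curved leucine-rich repeats, and human PRAME and mouse Pramel7 serve as substrate receptors of ubiquitin ligases built on the scaffold CUL2. In mouse embryonic stem cells Pramel7 directs UHRF1, a factor that maintains DNA methylation, to degradation. Oogenesins, the Oog genes, are known as transcripts of oocytes and early cleavage embryos, and Pramel6 and Pramel7 as genes of the preimplantation embryo and of stem cells in a naive state.

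RNA came from C57BL/6 mouse embryos in 4 groups of 2 libraries, CX45, CX22, 8C and 2C, prepared with Smart-seq, a method that amplifies cDNA from very little RNA. The labels 8C and 2C were taken to mean 8-cell and 2-cell stages. CX45 and CX22 were not explained in the labels, which named no control and gave no agent, dose or age for any group. The series title named the chromatin architecture of embryos and transcription by RNA polymerase I. Nothing said that the libraries of a group came from separate embryos, so p-values measure the spread between these libraries, which may be technical. Each library was a bulk sample, in which fewer cells of a kind and less RNA per cell cannot be told apart.

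Low FPKM values move in steps, from which depths of 11.0 and 12.7 M fragments (M, 1e6) were read for CX45, 9.72 and 12.0 M for CX22, 17.8 and 20.3 M for 8C, and 12.0 and 12.8 M for 2C. In these libraries 3 fragments on a 2 kb transcript amount to 0.0739 to 0.154 FPKM, counting error alone considered. The summed level of 9 oocyte genes was 135 to 167 FPKM in CX45, 1936 to 2557 in CX22, 25.6 to 28.8 in 8C and 2615 to 2627 in 2C. The summed level of 8 genes of the 8-cell stage and later was 922 to 1204 FPKM in CX45, 66.2 to 83.2 in CX22, 1302 to 1632 in 8C and 77.1 to 78.9 in 2C. Dppa2 and Dppa4 made up most of the CX45 and 8C sums. In CX45 Nanog stood at 6.53 and 4.54 FPKM, Krt8 at 1.46 FPKM and 0, and Pou5f1 at 0 and 2.16 FPKM. In 8C they stood at 20.3 and 18.2, 5.77 and 6.45, and 7.78 and 16.2 FPKM. Dppa2, Tead4 and Cdh1 were also lower in CX45 than in 8C, while Dppa4 and Krt18 overlapped. Markers of cumulus cells summed to at most 5.93 FPKM in any library. The CX22 libraries stood furthest apart, with a correlation of 0.819 between them over the tested genes on the log2 scale, against 0.928 in CX45, 0.972 in 8C and 0.994 in 2C. The 2C libraries were so close that they were averaged and counted as 1 sample, although they differed by somewhat more than sampling noise. That choice decided several counts, and counts with 2 separate 2C samples are given beside them.

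The family is clustered. In the mm9 build used by the authors, 23 members lay within chr4:142984344-143998367, and 12 of the 19 tested there were lower in 8C than in 2C by the limma test described below, with 0 higher (20.7% and 16.3% of all genes tested). Pramel6 and Pramel7 lay beside each other at chr2:87329245-87351022, Oog1 and Pramel51 within chr12:88943615-89420338, and 6 members on chromosome 5. Pramel32 lay by itself at chr4:88273224-88280090, Pramel17 and Pramel19 within chr4:101507574-101615788, and Pramel3 on the X chromosome.

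Near-identical copies limit how far single members can be told apart. Of 37 members, 24 shared over 10% of the 50-base words of their transcripts with another member, and 7 (Pramel1, Pramel3, Pramel6, Pramel7, Pramel12, Pramel13 and Pramel15) shared none. Pramel29 shared 75.4% with Pramel25, Oog1 shared 62.3% with Pramel51 and Oog2 shared 40.7% with Pramel26, so how the authors' counting split reads between these pairs is uncertain. Oog3 shared 1.1%. Reads of 50 or more bases from Pramel6 or Pramel7 can be told from those of the other members.

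Promoter sequence is shown for 6 members with high levels in 2C, for 2 cluster members that behaved differently in CX45 (Pramel20 and Pramel24), and for Pramel6 and Pramel7. Each stretch is the 120 bases just before the RefSeq transcript start, 5′ to 3′ on the gene's strand, from RefSeq with build GRCm38.p6, whose coordinates differ from those of mm9. Capitals mark AGGGTGTGGCTACAAAGGGA, the longest run shared by Oog1, Oog2, Pramel25, Pramel26 and Pramel29 in these stretches, and the letters TATATA and TATAAA, which can overlap each other.
Oog1, chr12:87602545-87602664, plus strand: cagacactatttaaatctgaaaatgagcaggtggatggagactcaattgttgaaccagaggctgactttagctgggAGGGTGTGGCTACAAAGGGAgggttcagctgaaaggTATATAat
Oog2, chr4:144190597-144190716, plus strand: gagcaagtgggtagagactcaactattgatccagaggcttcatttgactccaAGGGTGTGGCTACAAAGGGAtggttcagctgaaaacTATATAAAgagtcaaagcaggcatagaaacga
Oog3, chr4:144162652-144162771, minus strand: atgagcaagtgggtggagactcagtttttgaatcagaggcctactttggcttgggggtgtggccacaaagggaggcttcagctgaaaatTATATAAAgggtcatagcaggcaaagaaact
Pramel25, chr4:143789214-143789333, plus strand: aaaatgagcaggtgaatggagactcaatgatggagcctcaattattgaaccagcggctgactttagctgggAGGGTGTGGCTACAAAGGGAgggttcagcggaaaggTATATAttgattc
Pramel26, chr4:143816094-143816213, minus strand: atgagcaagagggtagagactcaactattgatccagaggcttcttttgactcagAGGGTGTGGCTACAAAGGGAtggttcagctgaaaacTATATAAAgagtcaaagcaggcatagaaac
Pramel29, chr4:144213018-144213137, minus strand: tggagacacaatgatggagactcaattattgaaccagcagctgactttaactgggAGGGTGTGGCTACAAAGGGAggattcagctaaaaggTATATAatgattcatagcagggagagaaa
Pramel20, chr4:143567347-143567466, plus strand: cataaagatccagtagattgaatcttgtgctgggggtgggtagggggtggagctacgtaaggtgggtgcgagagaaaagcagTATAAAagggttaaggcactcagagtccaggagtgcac
Pramel24, chr4:143719331-143719450, plus strand: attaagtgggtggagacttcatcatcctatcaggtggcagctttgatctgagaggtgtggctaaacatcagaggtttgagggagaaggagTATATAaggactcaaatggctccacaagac
Pramel6, chr2:87506445-87506564, plus strand: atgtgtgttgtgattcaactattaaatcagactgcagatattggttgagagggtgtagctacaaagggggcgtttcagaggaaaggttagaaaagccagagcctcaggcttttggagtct
Pramel7, chr2:87492419-87492538, minus strand: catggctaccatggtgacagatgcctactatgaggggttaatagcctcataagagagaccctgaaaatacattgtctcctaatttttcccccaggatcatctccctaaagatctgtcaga

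RefSeq held a promoter for 32 of the 37 members, and over the 250 bases before the start the 496 pairs were identical at a median of 43.3% of aligned positions, with a range of 34.8% to 97.6%. Pramel26 and Oog2 were identical at 92.5%, Pramel29 and Pramel25 at 83.5%, and Pramel25 and Oog1 at 81.8%. Likeness of promoters and of transcripts did not always go together: Pramel22 and Pramel27 shared 49.6% of transcript words with promoters identical at 43.3%, and Pramel24 shared 9.04% of its words with Pramel11, with promoters identical at 85.4%. Pramel6 and Pramel7, neighbours on chromosome 2, were identical at 34.8%, the lowest value of all pairs, and Pramel7 was closest to Pramel14, at 78.7%. The run AGGGTGTGGCTACAAAGGGA, searched on both strands and picked after the promoters had been read, occurred in those 5 members, from which it was taken, and in 0.0183% of 32851 promoters, 6 in all. All 5 fell in 8C, as did 13 of the 32 members with a promoter, but they had been shown for their high 2C levels, so nothing is read from that. Only exact matches were marked and counted. Oog3, which fell in 8C, and Pramel6, which rose, hold similar but inexact letters in the printed stretches. TATATA, also picked afterwards, occurred in 15 members (46.9%) against 5.25% of all promoters. TAATTG occurred in 9 members (28.1%) against 7.17%, TATAAA, the core of the TATA box, in 9 members (28.1%) against 12.4%, TAATCC, a core bound by OTX factors, in 4 members (12.5%) against 6.25%, and CANNTG, the E-box, in 27 members (84.4%) against 66.2%. A match describes the letters and is no evidence of binding.

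As a whole the family took a much smaller share of all FPKM in CX45 and 8C than in CX22 and 2C. Summed FPKM of the members were 1090 and 1514 in CX45, 4999 and 6453 in CX22, 763 and 1031 in 8C, and 6759 and 6770 in 2C. The share of all FPKM was 0.169% and 0.237% in CX45, 0.877% and 1.34% in CX22, 0.110% and 0.154% in 8C, and 1.22% and 1.43% in 2C. Pramel6 and Pramel7 together supplied 50.8% and 36.0% of the family sum in CX45, 0.179% and 0.546% in CX22, 70% and 75.9% in 8C, and 0.657% and 0.628% in 2C. Without this pair the other 35 members summed to 536 and 969 FPKM in CX45, 4990 and 6417 in CX22, 229 and 248 in 8C, and 6715 and 6727 in 2C. The most abundant member was Pramel7 in each CX45 and 8C library and Oog3 in each CX22 and 2C library.

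**Figure D1:**
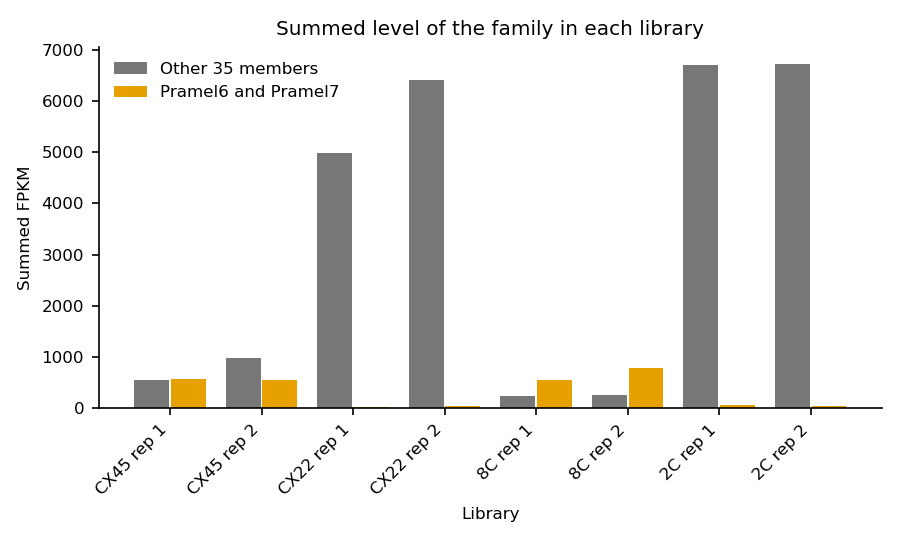
Summed FPKM of the family in each library, with 1 bar for the other 35 members and 1 bar beside it for Pramel6 with Pramel7. All bars start at 0. The bars of the other members reach 4990 to 6727 FPKM in CX22 and 2C. Pramel6 and Pramel7 make up 36.0% to 75.9% of the family sum in CX45 and 8C.

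Pramel7, the CUL2 receptor that acts on UHRF1, and its neighbour Pramel6 were high in CX45 and 8C and low in CX22 and 2C. Pramel7 stood at 511 and 495 FPKM in CX45, 5.99 and 31.0 FPKM in CX22, 450.1 and 638 FPKM in 8C, and 27.2 and 26.7 FPKM in 2C. All 4 libraries of CX45 and 8C lay above all 4 of CX22 and 2C, and CX45 and 8C overlapped. In 8C Pramel7 rose by 4.26 on the log2(FPKM + 1) scale against 2C (SE 0.92, limma with Benjamini-Hochberg adjustment over 11873 genes, adjusted p = 0.025). In CX45 it rose by 5.07 against CX22 (SE 0.75, limma adjusted p = 0.0102) and by 4.17 against 2C (SE 0.92, limma adjusted p = 0.0321). The calls against 2C were lost when either 8C or either CX45 library was left out, where the limma adjusted p reached 0.12 for 8C and 0.121 for CX45. That of CX45 was also lost without the filter on low values, and the call against CX22 without either CX45 library, with a limma adjusted p of up to 0.064.

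Pramel6 stood at 42.8 and 50.2 FPKM in CX45, 2.94 and 4.30 FPKM in CX22, 84.1 and 145 FPKM in 8C, and 17.3 and 15.8 FPKM in 2C. None of the 4 groups overlapped, with 8C highest, then CX45, 2C and CX22. Pramel6 rose by 2.67 in 8C against 2C (log2 scale, SE 0.45, limma adjusted p = 0.013), a call lost without 8C replicate 2, where the limma adjusted p was 0.0642. It also rose by 3.37 in CX45 against CX22 (log2 scale, SE 0.36, limma adjusted p = 0.00588). CX45 against 2C gave 1.43 and did not pass (SE 0.45, limma adjusted p = 0.0709), and CX22 against 2C gave -1.94 and did not pass (SE 0.45, limma adjusted p = 0.114). With 2 separate 2C samples both of these passed, with limma adjusted p of 0.0118 and 0.0135. Against 8C, CX45 gave -1.23 (SE 0.36, limma adjusted p = 0.177).

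The deposited entries split Pramel6 over 4 transcripts. One of them was listed at 0 in every CX22 and 2C library, at 16.5 and 24.0 FPKM in CX45 and at 48.8 and 96.7 FPKM in 8C. Another was listed in every library, at 20.7 and 20.6 FPKM in CX45, 2.94 and 4.30 FPKM in CX22, 35.3 and 47.9 FPKM in 8C, and 17.3 and 15.8 FPKM in 2C. The split between transcripts of 1 gene is an estimate of the authors' software and was not tested.

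One more member, Pramel42, was called higher both in 8C against 2C and in CX45 against CX22. In Pramel4, Pramel15 and Pramel48 all CX45 and 8C libraries likewise lay above all CX22 and 2C libraries, but neither change was called. Pramel42, a chromosome 5 member, stood at 42.4 and 43.4 FPKM in CX45, 17.8 and 6.70 FPKM in CX22, 82.2 and 87.8 FPKM in 8C, and 12.9 and 11.0 FPKM in 2C. The 8C libraries were highest and the CX45 libraries next, with CX22 and 2C overlapping below them. It rose by 2.74 in 8C against 2C (log2 scale, SE 0.57, limma adjusted p = 0.0232) and by 1.87 in CX45 against CX22 (log2 scale, SE 0.47, limma adjusted p = 0.0365). The call in 8C was lost without either 8C or either CX45 library, with a limma adjusted p of up to 0.112. The call against CX22 was lost under the same 4 omissions, without the filter and with quantile normalization, with a limma adjusted p of up to 0.147.

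The comparison of 8C with 2C asked how the family changes between these cleavage stages. Of 32 members tested, 16 fell and 3 rose in 8C, where 20.7% of all genes tested fell and 16.3% rose. The median log2 fold change was -2.28 over the members and -0.04 over all genes. The members that fell were Oog1, Oog2, Oog3, Oog4, Pramel12, Pramel13, Pramel16, Pramel20, Pramel24, Pramel25, Pramel26, Pramel29, Pramel31, Pramel32, Pramel34 and Pramel51. The other 13 were not called. Leaving out 8C replicate 1 left 11 members called, and leaving out 8C replicate 2 left 9. With 2 separate 2C samples 23 were called, of which 17 fell and 6 rose. That fit called 6697 of all 11873 genes tested in this comparison, in place of 4400.

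Oog3, an oogenesin, was the most abundant member in 2C. Oog3 stood at 67.3 and 158 FPKM in CX45, 1716 and 2095 FPKM in CX22, 30.4 and 36.0 FPKM in 8C, and 2051 and 2044 FPKM in 2C. The 8C libraries were lowest, the CX45 libraries lay above them without overlap, and CX22 overlapped 2C. In 8C Oog3 fell by 5.91 against 2C (log2 scale, SE 0.55, limma adjusted p = 0.00349). In CX45 it fell by 4.30 against 2C (SE 0.55, limma adjusted p = 0.00966) and fell by 4.19 against CX22 (SE 0.45, limma adjusted p = 0.00578). Its mean in 8C was 1.62% of that in 2C and its mean in CX45 was 5.51%.

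The other 3 oogenesins were likewise low in CX45 and 8C and high in CX22 and 2C. Oog1 stood at 11.4 and 22.2 FPKM in CX45, 169 and 198 FPKM in CX22, 1.71 and 4.57 FPKM in 8C, and 200.5 and 170.5 FPKM in 2C. Oog2 stood at 14.4 and 14.3 FPKM in CX45, 48.4 and 94.3 FPKM in CX22, 1.77 and 1.28 FPKM in 8C, and 142 and 140.1 FPKM in 2C. For Oog2 none of the 4 groups overlapped, and CX22 lay below 2C, although that difference was not called. Oog4 stood at 1.43 and 9.09 FPKM in CX45, 45.9 and 78.5 FPKM in CX22, 1.89 and 0.778 FPKM in 8C, and 51.7 and 49.6 FPKM in 2C, and here CX45 and 8C overlapped. In 8C against 2C the log2 fold changes were -5.59 for Oog1 (SE 0.61), -5.82 for Oog2 (SE 0.48) and -4.51 for Oog4 (SE 0.98), with limma adjusted p of 0.00478, 0.00283 and 0.025. The Oog4 call was lost without either 8C library.

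Pramel51 on chromosome 12 and Pramel25 and Pramel29 of the large chromosome 4 cluster came next in level. Pramel51 stood at 104 and 211 FPKM in CX45, 1445 and 1921 FPKM in CX22, 8.55 and 13.6 FPKM in 8C, and 1923 and 1917 FPKM in 2C. In this member the CX45 libraries lay well above the 8C libraries and far below the others. Pramel25 stood at 41.4 and 71.8 FPKM in CX45, 583 and 884 FPKM in CX22, 2.49 and 7.95 FPKM in 8C, and 934 and 991 FPKM in 2C. Pramel29, its near copy, stood at 44.5 and 91.2 FPKM in CX45, 494 and 675 FPKM in CX22, 7.88 and 10.8 FPKM in 8C, and 916 and 929 FPKM in 2C. In both genes the 4 groups lay apart, in the order 8C, CX45, CX22 and 2C from lowest to highest. The falls in 8C against 2C were the steepest of the family, at -7.43 for Pramel25 (SE 0.70), -7.35 for Pramel51 (SE 0.54) and -6.50 for Pramel29 (SE 0.52), with limma adjusted p of 0.00356, 0.00229 and 0.00261.

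Pramel26, Pramel32 and Pramel34 were likewise lowest in 8C, at lower levels, and for Pramel32 and Pramel34 the CX22 and 2C libraries overlapped. Pramel26 stood at 12.95 and 13.5 FPKM in CX45, 62.9 and 124 FPKM in CX22, 1.20 and 0.435 FPKM in 8C, and 134 and 139 FPKM in 2C. Pramel32 stood at 4.66 and 4.01 FPKM in CX45 and 64.6 and 79.8 FPKM in CX22, was listed at 0 in one 8C library and at 1.16 FPKM in the other, and stood at 74.2 and 70.9 FPKM in 2C. Pramel34 stood at 4.50 and 4.08 FPKM in CX45, 42.3 and 48.8 FPKM in CX22, 0.124 and 0.199 FPKM in 8C, and 51.0 and 45.1 FPKM in 2C. In all 3 genes the CX45 libraries lay between those of 8C and those of CX22 and 2C. Their log2 fold changes in 8C against 2C were -6.28 (Pramel26, SE 0.54), -5.65 (Pramel32, SE 0.57) and -5.40 (Pramel34, SE 0.37), with limma adjusted p of 0.00304, 0.004 and 0.00218. For scale, 3 fragments on 2 kb amount to 0.0844 and 0.0739 FPKM in the 8C libraries.

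A second set of members had fallen in 8C and yet stood in CX45 at levels near those in 2C. Pramel16 stood at 30.2 and 64.1 FPKM in CX45, 88.3 and 23.1 FPKM in CX22, 0.538 and 0.237 FPKM in 8C, and 37.4 and 35.9 FPKM in 2C. Pramel20 stood at 8.28 and 36.8 FPKM in CX45, 33.2 and 15.8 FPKM in CX22, 0.160 and 0.164 FPKM in 8C, and 32.3 and 32.9 FPKM in 2C. In both genes 8C was apart and far below, and CX45, CX22 and 2C overlapped. Pramel24 stood at 12.3 and 37.97 FPKM in CX45, 51.3 and 15.3 FPKM in CX22, at 0 and 0.0467 FPKM in 8C, and at 17.5 and 17.9 FPKM in 2C. Pramel31 stood at 14.3 and 28.7 FPKM in CX45, 12.9 and 27.1 FPKM in CX22, 3.30 and 2.57 FPKM in 8C, and 27.7 and 26.7 FPKM in 2C. These 4 genes again had 8C apart and lowest. Each had its higher CX45 value in replicate 2, as did the sum of all members other than Pramel6 and Pramel7. Pramel16 shared 29.7% of its transcript words with Pramel20, and Pramel31 shared 19% with Pramel16. How reads were split among Pramel16, Pramel20 and Pramel31 is therefore uncertain, and their values may not be independent. Pramel24 was closest to Pramel11, with 9.04% of its words shared. The part of read splitting in the CX45 levels was not tested.

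In 8C against 2C the log2 fold changes were -4.77 for Pramel16 (SE 0.92), -4.85 for Pramel20 (SE 0.97), -4.19 for Pramel24 (SE 0.98) and -2.85 for Pramel31 (SE 0.65), with limma adjusted p of 0.0189, 0.0206, 0.0305 and 0.0287. All 4 calls were lost without either 8C library, with a limma adjusted p of up to 0.127. The mean in CX45 was 129% of that in 2C for Pramel16, 142% for Pramel24, 79.0% for Pramel31 and 69.1% for Pramel20. Pramel12 stood at 60.1%, and in the 11 other members that fell in 8C the same figure ran from 5.51% for Oog3 to 31.1% for Pramel13. This grouping was made after the values were seen.

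Pramel12 and Pramel13, which share no 50-base word with another member, moved least among those that fell. Pramel13 stood at 14.1 and 12.6 FPKM in CX45, 26.5 and 35.8 FPKM in CX22, 7.03 and 5.15 FPKM in 8C, and 42.3 and 43.5 FPKM in 2C, so none of its groups overlapped. Pramel12 stood at 5.48 and 6.60 FPKM in CX45, 16.96 and 15.6 FPKM in CX22, 2.50 and 1.27 FPKM in 8C, and 9.51 and 10.6 FPKM in 2C, with CX22 highest. In 8C against 2C Pramel13 fell by 2.64 (log2 scale, SE 0.37, limma adjusted p = 0.00855) and Pramel12 by 1.97 (SE 0.47, limma adjusted p = 0.0321). The Pramel12 call was lost with quantile normalization and without any of the 8C or CX45 libraries, and the Pramel13 call without 8C replicate 2.

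**Figure D2:**
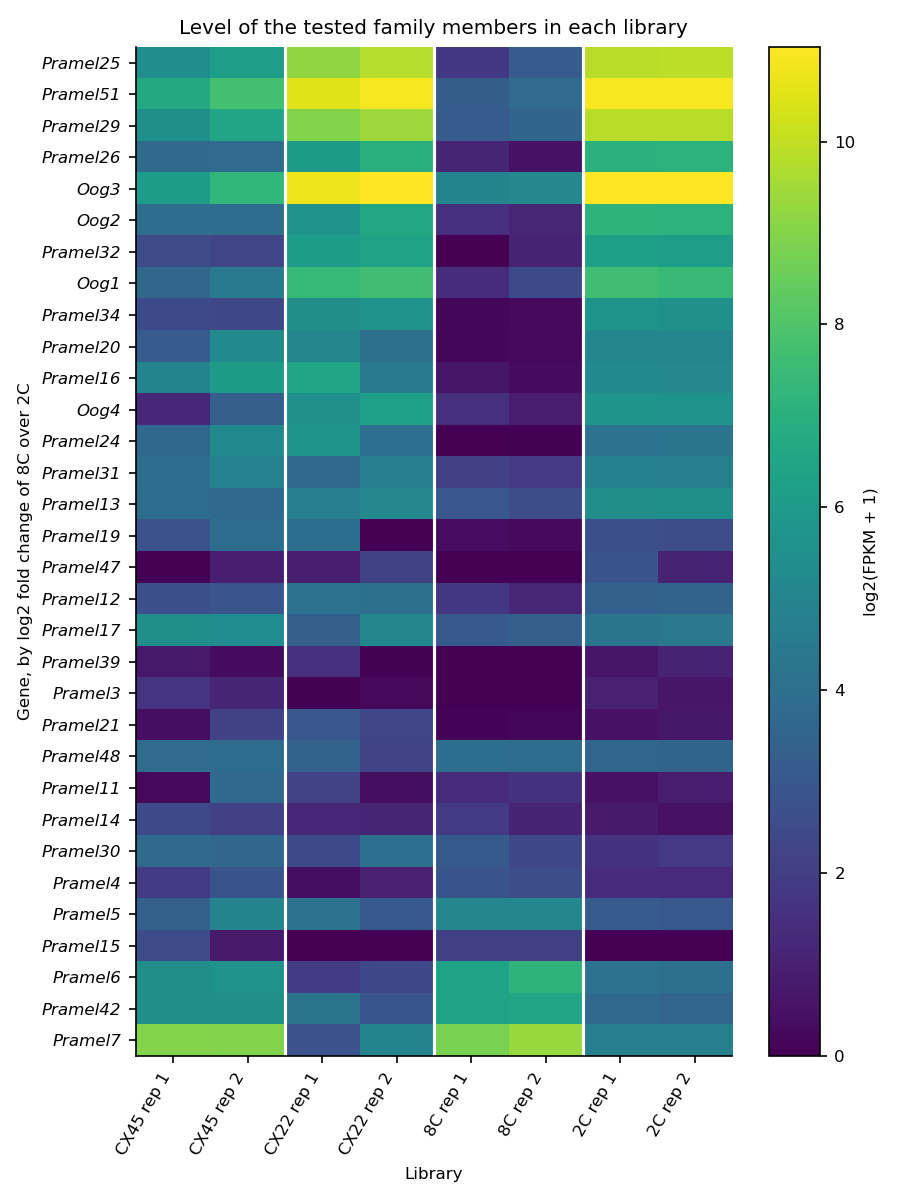
Level of the 32 tested members in each library as log2(FPKM + 1), with genes ordered by the log2 fold change of 8C over 2C and libraries in the order CX45, CX22, 8C and 2C. Pramel7, Pramel42 and Pramel6 are bright in CX45 and 8C, while Oog3, Pramel51, Pramel25 and Pramel29 are bright in CX22 and 2C and dark in 8C.

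Members that were not called in 8C against 2C were mostly low. Pramel5 stood at 9.38 and 29.3 FPKM in CX45, 16.4 and 7.12 FPKM in CX22, 33.1 and 34.6 FPKM in 8C, and 7.98 and 7.29 FPKM in 2C. Its 8C libraries were the highest, but 2.01 on the log2 scale did not pass (SE 0.81, limma adjusted p = 0.114). Pramel48 stood at 13.6 and 14.1 FPKM in CX45, 9.97 and 3.84 FPKM in CX22, 14.8 and 14.1 FPKM in 8C, and 11.1 and 10.7 FPKM in 2C, close to level apart from 1 CX22 library. Pramel30 stood at 12.6 and 11.6 FPKM in CX45, 4.51 and 15.5 FPKM in CX22, 7.63 and 4.21 FPKM in 8C, and 2.10 and 2.54 FPKM in 2C, lowest in 2C. Pramel4 stood at 2.84 and 6.36 FPKM in CX45, 0.316 and 1.02 FPKM in CX22, 6.35 and 5.18 FPKM in 8C, and 1.47 and 1.48 FPKM in 2C, so that CX45 and 8C overlapped above the rest.

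Pramel17 and Pramel19, the pair at the middle locus of chromosome 4, were also uncalled. Pramel17 stood at 43.9 and 40.6 FPKM in CX45, 9.16 and 34.0 FPKM in CX22, 7.34 and 9.23 FPKM in 8C, and 18.1 and 19.5 FPKM in 2C, with CX45 above all other groups. Pramel19 stood at 6.06 and 14.1 FPKM in CX45, at 14.7 FPKM and 0 in the CX22 libraries, at 0.308 and 0.204 FPKM in 8C, and at 5.39 and 5.15 FPKM in 2C. Pramel19 was the only member above 10 FPKM in one library of a group and listed at 0 in the other. Pramel11 stood at 0.183 and 12.6 FPKM in CX45, 3.78 and 0.333 FPKM in CX22, 1.47 and 2.09 FPKM in 8C, and 0.448 and 0.785 FPKM in 2C, so its CX45 libraries differed most. Pramel15 was listed at 0 in every CX22 and 2C library and stood at 4.87 and 0.714 FPKM in CX45 and 3.24 and 3.23 FPKM in 8C.

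The comparison of CX22 with 2C found little difference in the family. None of 32 members rose and none fell in CX22 by limma, where 0.598% of all genes tested rose and 3.29% fell. At an unadjusted p under 0.05, 0 members were higher and 1, Pramel6, was lower. The median log2 fold change was -0.11 over the members and -0.07 over all genes. The spread between the CX22 libraries was wide, so a p that missed the threshold does not show that the levels were alike. The highest members kept a large share of their 2C level, with mean FPKM in CX22 at 93.1% of 2C for Oog3, 87.7% for Pramel51, 76.2% for Pramel25, 63.4% for Pramel29 and 50.7% for Oog2.

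Mean FPKM in CX45 lay between those in 8C and 2C for 23 of the 32 tested members and above both for 9 (Pramel3, Pramel11, Pramel14, Pramel16, Pramel17, Pramel19, Pramel21, Pramel24 and Pramel30). Against CX22, 11 members fell and 4 rose in CX45, where 13.5% of all genes tested fell and 23% rose. Those that fell were Oog1, Oog2, Oog3, Oog4, Pramel13, Pramel25, Pramel26, Pramel29, Pramel32, Pramel34 and Pramel51, and those that rose were Pramel3, Pramel6, Pramel7 and Pramel42. Pramel3 would not have passed the filter without its CX45 values, so its rise is a description. The median log2 fold change was -0.29 over the members and 0.47 over all genes. The log2 fold changes were -3.69 for Pramel25 (SE 0.57, limma adjusted p = 0.0113), -3.48 for Pramel51 (SE 0.44, limma adjusted p = 0.00754) and -3.44 for Oog1 (SE 0.50, limma adjusted p = 0.00989). The Pramel25 call was lost without CX22 replicate 2 and without CX45 replicate 1, with a limma adjusted p of up to 0.0671. Fewer members were called without CX45 replicate 1. With 2 separate 2C samples 18 were called, of which 12 fell and 6 rose. That fit called 5404 of all 11873 genes tested here, in place of 4326.

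Against 2C, 10 members fell in CX45 and 1 rose, where 13.6% of all genes tested fell and 16.2% rose. The median log2 fold change was -0.03 over the members and 0.33 over all genes, with 16 members above 0 and 16 below. The 10 that fell were Oog1, Oog2, Oog3, Pramel13, Pramel25, Pramel26, Pramel29, Pramel32, Pramel34 and Pramel51, and Pramel7 rose. This comparison shares its 2C libraries with that of 8C against 2C, so the 2 sets of falls are not independent. The falls ran from 1.62 on the log2 scale for Pramel13 (SE 0.37, limma adjusted p = 0.0354) to 4.30 for Oog3. The Pramel13 call was lost without any one of the 8C or CX45 libraries, with a limma adjusted p of up to 0.101. With 2 separate 2C samples 17 members were called in place of 11, the added ones including Oog4, which fell, and Pramel6 and Pramel42, which rose. Over all 11873 genes tested that fit called 6109 in place of 3536, so the gain is not particular to the members. Without CX45 replicate 1 there were 4 and without CX45 replicate 2 there were 7.

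**Figure D3:**
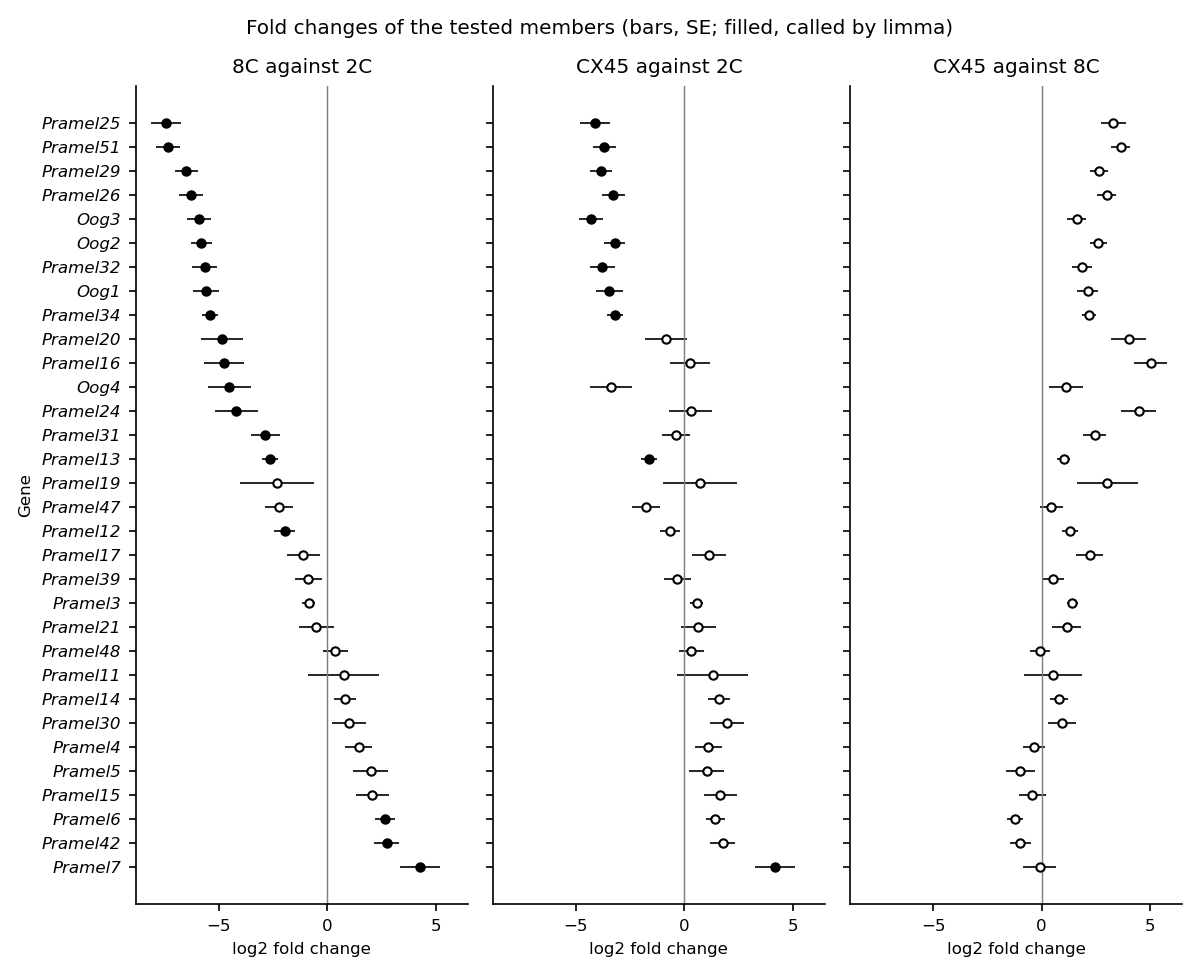
Log2 fold change of each tested member with its standard error in 8C against 2C, CX45 against 2C and CX45 against 8C. Filled points were called by limma. The steep falls in 8C, down to -7.43 for Pramel25, are mostly filled, while the points of CX45 against 8C lie mainly above 0 and none is filled.

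The comparison of CX45 with 8C turned on how the 2C libraries were counted. No member rose or fell in CX45 by limma, where 0.463% of all genes tested rose and 0.202% fell, and the lowest adjusted p was 0.0552, for Pramel51. At an unadjusted p under 0.05, 17 members were higher and 1 was lower in CX45. The share of all genes at this looser threshold was not counted, so nothing particular to the members is read from it. The libraries of CX45 lay wholly above those of 8C for 22 members and wholly below for 4, against 40.4% and 16.5% of all genes tested. The median log2 fold change was 1.36 over the members and 0.31 over all genes. Quantile normalization brought the median of all genes to 0.00 and that of the members to 0.93, with 26 of 32 members above 0, against 25 as deposited.

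With 2 separate 2C samples, 13 members passed in CX45 against 8C, all higher, and 1037 genes passed in all. The 13 were Oog1, Oog2, Pramel3, Pramel16, Pramel20, Pramel24, Pramel25, Pramel26, Pramel29, Pramel31, Pramel32, Pramel34 and Pramel51. Among them Pramel3 had passed the filter only through its CX45 values. The fold changes of the 13 were the same in both fits, for example 3.66 for Pramel51 (log2 scale, SE 0.44), where the limma adjusted p was 0.0083 in place of 0.0552, and 5.03 for Pramel16 (SE 0.75), where it was 0.0121 in place of 0.0678. With a pseudocount of 0.1, 3 members passed (Pramel24, Pramel34 and Pramel51), and 184 genes passed in all.

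All 16 members that had fallen in 8C were above 8C in CX45 by their fold change, which ran from 1.03 for Pramel13 to 5.03 for Pramel16. Those 16 were picked by their low 8C values, and the same 8C libraries enter here, so the count is a description. The summed level of 9 genes listed as 2-cell-stage genes was 83.5 FPKM in CX45 replicate 1 and 833 FPKM in CX45 replicate 2, against 12.5 to 15.6 FPKM in 8C. Of that list Tdpoz3 was at 0 in both 2C libraries. Tdpoz4 ran the other way, at 0.972 and 0.699 FPKM in 2C and 9.15 and 9.57 FPKM in 8C, and made up most of the 8C sum. Zfp352, Tcstv1, Tcstv3 and Tdpoz4 carried most of the gap between the CX45 libraries, while Zscan4c (1.28 and 0.588 FPKM), Zscan4f (2.73 and 1.68 FPKM) and Usp17la (2.71 and 1.37 FPKM) were lower in replicate 2. CX45 replicate 2 was also the higher library for Pramel16, Pramel20, Pramel24 and Pramel31. This was not particular to them: the members other than Pramel6 and Pramel7 summed to 536 FPKM in replicate 1 and 969 FPKM in replicate 2. Oog3 and Pramel51, far below their 2C levels, were also higher in replicate 2, while Oog2 and Pramel34 were not. The sum of the 9 oocyte genes was higher in CX45 than in 8C as well, as given above. Oosp1 and Zp3 made up most of the CX45 sums. Zp3 was near level in 2C (14.7 and 15.5 FPKM) and 8C (13.3 and 13.4 FPKM) and stood at 54.3 and 29.5 FPKM in CX45. Zp2 and Mos overlapped between CX45 and 8C. The 6 blood markers summed to 302 to 360 FPKM in CX45, 33.8 to 83.9 FPKM in CX22, 12.3 to 32.0 FPKM in 8C and 110.5 to 110.8 FPKM in 2C. In CX45 nearly all of that was Hba-a1 (286 and 347 FPKM), with Hbb-bt at 0 and Ptprc at 0.0701 FPKM and 0. The part of these differences in the members' levels was not tested.

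**Figure D4:**
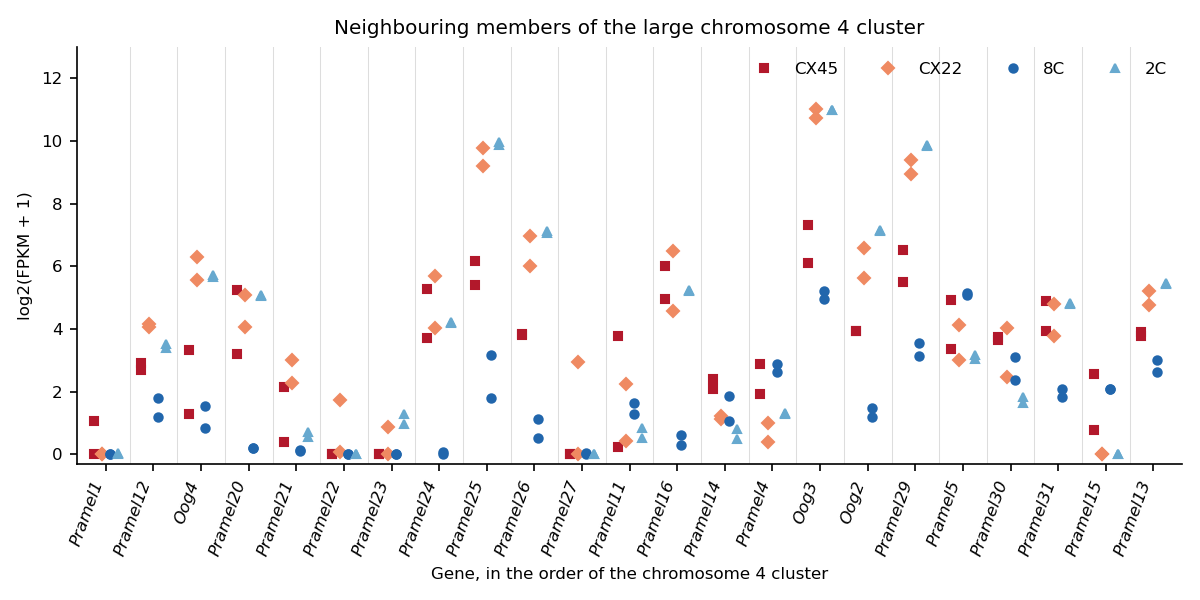
Level as log2(FPKM + 1) of members in the large chromosome 4 cluster, in their order along the chromosome, with 1 point per library and a colour per group. Neighbours such as Pramel24 and Pramel25 differ in CX45, which stood at 12.3 and 37.97 FPKM for Pramel24, on either side of its 2C values of 17.5 and 17.9, and at 41.4 and 71.8 FPKM for Pramel25, far below its 2C values of 934 and 991.

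Whether the change between CX45 and CX22 differed from that between 8C and 2C was tested directly, although the labels do not say that these pairs of groups match. No member passed, against 3.2% of all genes tested with a positive difference and 0.404% with a negative one, and the lowest limma adjusted p was 0.0584. At an unadjusted p under 0.05, 13 members had a positive difference and 0 a negative one. The share of all genes at that threshold was not counted, so nothing particular to the members is read from these counts. The median difference was 1.61 over the members and 0.53 over all genes. With 2 separate 2C samples 12 members passed, all positive, among them Oog2 at 3.66 and Pramel51 at 3.86 on the log2 scale. In that fit 1781 of all 11873 genes tested passed, in place of 428. For Pramel6 and Pramel7 the differences were 0.71 (SE 0.58) and 0.81 (SE 1.19), with limma adjusted p of 0.563 and 0.755.

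The fitted changes had opposite signs, lower in 8C than in 2C and higher in CX45 than in CX22, for 4 members (Pramel3, Pramel17, Pramel19 and Pramel31), and in Pramel3 and Pramel17 the libraries of each pair did not overlap. Neither share was counted over all genes tested, so nothing particular to the members is read from this. Pramel3, on the X chromosome, stood at 2.30 and 1.18 FPKM in CX45, 0.0557 and 0.180 FPKM in CX22, 0 and 0.0134 FPKM in 8C, and 1.04 and 0.572 FPKM in 2C. It rose by 1.26 in CX45 against CX22 (log2 scale, SE 0.25, limma adjusted p = 0.0194), and 8C against 2C gave -0.84 (SE 0.30, limma adjusted p = 0.0893). Pramel3 reached 1 FPKM in 3 libraries, both of CX45 and 2C replicate 1. It was thus tested only through the group where it is highest, and its rise there is a description. Its 8C values and its lower CX22 value lay below the level of 3 fragments on a 2 kb transcript. The difference between the changes was 2.11 for Pramel3 (SE 0.39, limma adjusted p = 0.0695) and 2.29 for Pramel17 (SE 1.00, limma adjusted p = 0.296), neither of whose changes was called. It was 3.70 for Pramel19 (limma adjusted p = 0.422) and 2.96 for Pramel31 (SE 0.84, limma adjusted p = 0.153), and their values in CX45 against CX22, 1.38 and 0.11, turned negative under alternatives. The call of Pramel3 against CX22 was lost with quantile normalization and in 5 of the omissions of a library, with a limma adjusted p of up to 0.58.

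Partners of the family were followed in a list of 18 genes of CUL2 ubiquitin ligases, of which 16 were tested. In 8C against 2C, 3 rose (Eloc, Lrr1 and Nedd8) and 4 fell (Fem1b, Fem1c, Klhdc2 and Rbx1), and the median of the 16 was 0.58, where 16.3% of all genes tested rose and 20.7% fell. Eloc, the adaptor that links CUL2 to its receptors, stood at 3861 and 3190.3 FPKM in CX45, 974 and 658 FPKM in CX22, 5286 and 4132 FPKM in 8C, and 594 and 583 FPKM in 2C. It rose in 8C against 2C by 2.99 on the log2 scale (SE 0.37, limma adjusted p = 0.00636) and in CX45 against CX22 by 2.13 (SE 0.30, limma adjusted p = 0.00937). Eloc was thus high in the same groups as Pramel7.

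Its partner Elob stood at 1288 and 1221 FPKM in CX45, 413 and 218 FPKM in CX22, 1069 and 804 FPKM in 8C, and 375 and 384 FPKM in 2C. Elob rose in CX45 against CX22 by 2.06 (log2 scale, SE 0.37, limma adjusted p = 0.0158) and was not called in 8C against 2C. The scaffold Cul2 stood at 33.2 and 11.5 FPKM in CX45, 3.47 and 14.3 FPKM in CX22, 26.7 and 22.0 FPKM in 8C, and 7.34 and 7.97 FPKM in 2C, and it was called in none of the comparisons. Rbx1, the RING subunit, stood at 524 and 330.2 FPKM in CX45, 784 and 652 FPKM in CX22, 352 and 235 FPKM in 8C, and 822 and 847 FPKM in 2C. It fell in 8C against 2C by 1.53 (log2 scale, SE 0.42, limma adjusted p = 0.0462).

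Among other receptors of CUL2, Lrr1 rose in 8C against 2C by 3.25 (log2 scale, SE 0.51, limma adjusted p = 0.011) and Klhdc2 fell by 3.68 (SE 0.60, limma adjusted p = 0.0122). In CX45 against CX22, 5 of the list rose (Elob, Eloc, Lrr1, Nedd8 and Vhl) and 1 fell (Klhdc2), where 23% of all genes tested rose and 13.5% fell. In CX45 against 2C, 4 rose (Elob, Eloc, Lrr1 and Nedd8) and 1 fell (Klhdc2), where 16.2% of all genes tested rose and 13.6% fell. Nothing particular to the list is read from these counts. None of the 16 was called in CX22 against 2C or in CX45 against 8C. Of the 23 calls of this list and of the DNA methylation genes below in 8C against 2C, CX45 against CX22 and CX45 against 2C, 22 were lost under at least 1 alternative; the exception was Eloc in 8C against 2C. The highest limma adjusted p over the alternatives was 0.169 for Rbx1 in 8C, 0.0719 for Lrr1 and 0.0639 for Klhdc2 in 8C, and 0.0844 for Elob and 0.0557 for Eloc in CX45 against CX22.

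Uhrf1, the protein that Pramel7 is known to target in stem cells, moved opposite to Pramel7 at the RNA level. It stood at 3.47 and 3.82 FPKM in CX45, 24.0 and 20.3 FPKM in CX22, 1.58 and 2.75 FPKM in 8C, and 18.9 and 19.3 FPKM in 2C, so the 4 libraries of CX45 and 8C lay below all others. Uhrf1 fell by 2.69 in 8C against 2C (log2 scale, SE 0.44, limma adjusted p = 0.0124), fell by 2.31 in CX45 against CX22 (SE 0.36, limma adjusted p = 0.0114) and fell by 2.12 in CX45 against 2C (SE 0.44, limma adjusted p = 0.0282). These calls were lost without either 8C library for 8C, without CX45 replicate 1 against CX22, and without any one of the 8C or CX45 libraries for CX45 against 2C, with limma adjusted p of up to 0.0657, 0.0517 and 0.0828. These are RNA levels and say nothing of the protein. Uhrf1 was the only one of 7 genes of DNA methylation maintenance called in 8C against 2C, where 16.3% of all genes tested rose and 20.7% fell. Nothing particular to the list is read from this count.

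Dnmt1, the maintenance methyltransferase, stood at 2.28 and 4.47 FPKM in CX45, 0.954 and 4.77 FPKM in CX22, 1.81 and 1.63 FPKM in 8C, and 3.71 and 3.62 FPKM in 2C, and was called in no comparison. Dppa3, which protects maternal methylation, stood between 14090.1 and 26937 FPKM in all libraries and was called in no comparison. Pcna, the sliding clamp of replication, rose in CX45 against CX22 by 1.25 (log2 scale, SE 0.32, limma adjusted p = 0.0378) and against 2C by 1.85 (SE 0.39, limma adjusted p = 0.0287). Both Pcna calls were lost with quantile normalization and without any one of the 8C or CX45 libraries, with limma adjusted p of up to 0.183 and 0.103.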

How the data were processed

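Per the labels, total RNA of mouse embryos was turned into Smart-seq cDNA, amplified with KAPA HiFi, made into Nextera XT libraries and sequenced on a BGISEQ500. Per the submitters' processing notes, the tools were HISAT2 (listed as 4.8.2) and Cufflinks 2.2.1 and the build mm9; settings, annotation release and read length were not given in the sources used here. For each library the authors deposited FPKM by RefSeq transcript and locus. Of 41876 entries 41685 matched a symbol of the GRCm38.p6 RefSeq table, and the other 191 held 0.065% to 0.253% of summed FPKM. FPKM were summed per gene, accessions at more than 1 locus (337) included.

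Genes that reached 1 FPKM in at least 2 libraries (11873) were tested on log2(FPKM + 1), which understates the change of low genes, with limma 3.58.1 in R 4.3.3 with a trend, all groups in 1 fit, two-sided. Calls needed an adjusted p (Benjamini-Hochberg, all tested genes) under 0.05 together with a log2 fold change of 1 or more in either direction. Depth was taken from the steps between low values of single-entry genes, of which 63.1% to 68.1% came within 0.05 of whole fragment numbers.

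The design counted the 2C libraries as 1 sample if they differed by no more than sampling noise. Over the 5494 genes with 20 or more fragments, the chi-square of their difference had a median 1.33 times that of chance, and 10.4% of genes lay beyond the 95% point, where chance gives 5%. The check was then narrowed, after that value was seen, to genes with 20 to 200 fragments (1859 genes), which gave 1.12 times and 9.2%. By neither window were the libraries fully within noise. In the narrow window the ratios were 42.3 in CX45, 69.8 in CX22 and 26.2 in 8C. The 2C libraries were averaged all the same, the choice that calls fewer members, so the fit had 7 samples with 3 degrees of freedom for the residual, and the spread of 2C was taken to equal that of the remaining groups.

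The fit was tested on simulated data with known changes; changes of 3 on the log2 scale went uncalled more often than not, so a low count of calls does not show absence of change. Values in every library are given for Pramel6, Pramel7, the Oog genes and the 20 other tested members with the highest mean FPKM; Pramel3 and Pramel15 were added after their values were seen. Members and lists were chosen with earlier results of these data known. Words of 50 bases were compared between GENCODE transcripts.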

Additional observations from a re-analysis of the deposited data

How the results depend on the processing

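The alternatives were followed for 98 member fold changes, those at an unadjusted p under 0.05 and others printed above, 45 of them called. Of the values so obtained, 1339 stayed on their side of the threshold, 78 lost a call, 102 gained one and 5 changed sign, all 5 of differences that were not called. Pramel19 in CX45 against CX22 ran from -0.61 without CX22 replicate 2 to 3.37 without CX22 replicate 1, Pramel31 in that comparison became -0.19 with quantile normalization, -0.40 without CX22 replicate 1, -0.37 without CX45 replicate 2 and 0.62 without CX22 replicate 2, and the difference between the changes for Pramel7 ran from -0.29 without CX22 replicate 1 to 1.91 without CX22 replicate 2. For 23 calls of list genes, 267 values kept the call and 93 lost it. Counting 2C as 2 samples moved the members called to 1 in CX22 against 2C, 13 in CX45 against 8C, 17 in CX45 against 2C and 12 for the difference between the changes, in place of 0, 0, 11 and 0. Over all 11873 genes tested the counts, in the same order, were 1616, 1037, 6109 and 1781, in place of 462, 79, 3536 and 428. With the replicate block the members called were 1, 12, 17 and 9, and all genes called 1346, 710, 6043 and 1338. Same-numbered libraries deviated from their group means with correlations of -0.001 to 0.105, with 8C and CX22 not compared. The labels give such libraries only the same number, and whether they share more was not tested. A pseudocount of 0.1 called 3 members in CX45 against 8C and 1 for the difference between the changes, and no filter called 1 there. Leaving out 1 library at a time gave 9 to 21 members in 8C against 2C, 7 to 15 in CX45 against CX22, 4 to 14 in CX45 against 2C, and 0 to 4 for the difference between the changes. It gave 0 in CX22 against 2C and in CX45 against 8C throughout. Counts over all genes tested shifted under these settings too. In CX45 against 8C, counting 2C as 2 samples left the fold changes as they were. It altered only the spread shared by all groups and its degrees of freedom. The causes of the other shifts were not tested. The fit without CX22, added after its libraries were seen to differ most, called 21 members in 8C against 2C, 0 in CX45 against 8C and 14 in CX45 against 2C. Over all genes tested it called 5591, 0 and 4907. The level that 3 fragments give on a 2 kb transcript, 0.0739 FPKM in the deepest 8C library and 0.154 FPKM in the shallowest CX22 library, sets what can be told from absent.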
